A study of Saccharomyces cerevisiae with 4 samples.

Results

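The 10 genes described here encode enzymes of glycolysis in budding yeast: PFK1, PFK2, CDC19, PGI1, TPI1, TDH1, TDH2, TDH3, ENO1 and ENO2. They were chosen by name, all 10 were found among 6002 protein-coding genes of the nuclear chromosomes, and each was described by the Spo11 oligos in its open reading frame (ORF) and in the gap between its start codon and the next gene. Glycolysis splits glucose into pyruvate and yields ATP, and its enzymes are among the most abundant proteins of growing yeast. Several steps are served by duplicated genes, and in the promoters of many of these genes the factors Rap1 and Gcr1 bind and activate transcription. Cells that enter meiosis in acetate medium use the pathway in reverse, for gluconeogenesis, with phosphofructokinase and pyruvate kinase bypassed.

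Spo11 is the protein that starts meiotic recombination by cutting chromosomes; it leaves with a short oligo attached, and the 5′ end of each sequenced oligo marks a cut. The material was diploid yeast of the SK1 background with both SPO11 copies tagged (SPO11-HA3-His6::kanMX); on both homologues all cells also carried arg4-Nsp, a deletion of the nuclease gene NUC1 (nuc1∆::LEU2), his4X::LEU2 and leu2::hisG, along with ura3, lys2 and ho::LYS2. Pre-sporulation growth in YPA, an acetate medium, took 14 h at 30 °C after a start at OD600 0.2, and meiosis ran for 4 h in 2% potassium acetate. Culture 1 gave 3 technical datasets and culture 2 gave 1, and the files are of the whole series and do not tell the datasets apart. The pooled list held 2024944 uniquely mapped oligos, with 395612 to 587674 in each of 4 sequencing runs told apart by read name, and which culture a run came from is unknown. The runs are therefore not replicates, no group is set against another, and no difference between genes carries a test. Levels are given in RPM, oligos per 1000000 mapped oligos, and intervals are 95% Poisson intervals that cover counting error only.

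Summed over the 10 genes, breaks lay mostly upstream of the ORFs. The 10 upstream gaps held 6996 oligos in 9.42 kb, or 367 RPM per kb, whereas the 10 ORFs held 124 oligos in 15.4 kb, or 3.98 RPM per kb. PFK2 and CDC19 supplied 2639 and 2376 of the gap oligos, whereas the gaps of PGI1, TDH1 and ENO2 held 3, 8 and 0. In PGI1 and ENO2 the ORF held more oligos than the gap, with 15 and 4, but over a much longer stretch. These ORFs are 1665 and 1314 bp long, and the gaps 123 and 173 bp. Per length the PGI1 gap, with only 3 oligos, had 12.0 RPM per kb and the PGI1 ORF 4.45 RPM per kb. For ENO2, 0 oligos in so short a gap cannot show a density below that of the ORF. Of the 10 genes, 6 had a hotspot in the 5′ gap, a stretch where smoothed oligo counts reach 2.3 times the genome mean; over all 5564 genes with a measurable gap the share was 73.8%. The median gap held 107 RPM in the 10 genes and 94.3 RPM in all genes, and per length 116 RPM per kb in the 10 genes and 200.03 RPM per kb in all genes, so that 4 of the 10 lay above the median density (50% of genes by construction). Levels ranged from 1303 RPM at PFK2, rank 122 of 5564, to 0 at ENO2.

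The gap rule ends at the next annotated reading frame, and for PGI1, TDH1 and ENO2 that frame is a small one without a standard name, at 123, 267 and 173 bp. All 3 had a hotspot summit on the far side of that boundary, about 420, 500 and 470 bp before their own start codons. Counted by distance instead, 9 of the 10 genes had a hotspot summit 1 to 1000 bp before the start codon (73.8% of all genes), with TDH3 the exception, and 6 of the 10 had one within 500 bp (65% of all genes). With the gap drawn to the next gene that has a standard name, 9 of 10 held a hotspot (78.5% of 4941 genes). The measures by distance and by standard name were chosen after the values were seen. Distances to start codons rest on a gene table whose register against the map is uncertain, by up to 50 bp near these genes.

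**Figure D1:**
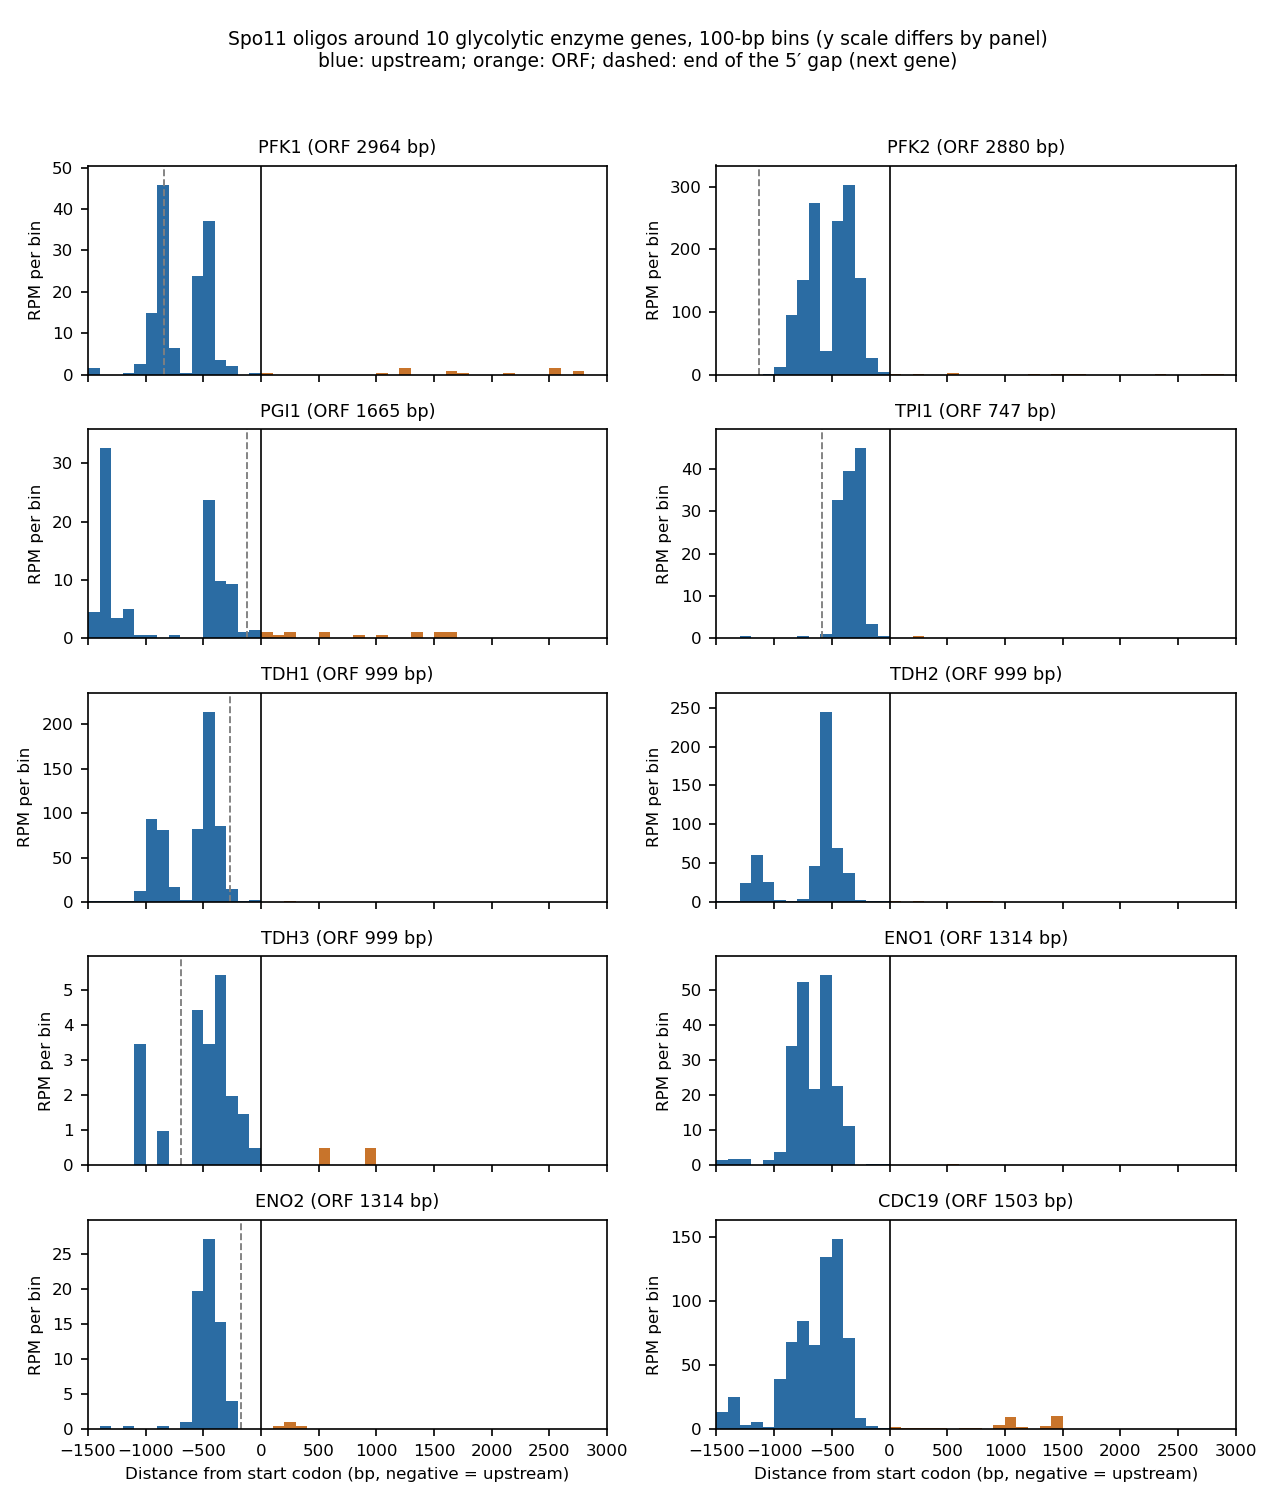
Spo11 oligos in RPM per 100-bp bin (y axis, own scale in each panel) against distance from the start codon in bp (x axis) for the 10 genes, with upstream bins in blue and ORF bins in orange; the dashed line marks where the 5′ gap ends and lies beyond the axis for TDH2, ENO1 and CDC19. The nearest upstream peaks stand 200 to 700 bp before the start codon, the last 100 bp are nearly empty, and for PGI1, TDH1 and ENO2 the peak lies past the dashed line.

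At the head of the pathway, PGI1 encodes phosphoglucose isomerase, which turns glucose 6-phosphate into fructose 6-phosphate. Its 123 bp gap held 3 oligos (interval 0.619 to 8.77), with 0 in runs E8YXO9P and FE8RWPF, 2 in FFA0GWK and 1 in FIDXMPL. A narrow hotspot of 80 bp (II, 614278 to 614357, in the coordinates of the files) held 53 oligos, with its summit about 420 bp before the PGI1 start codon, past the small frame YBR196C-A. In the whole 1000 bp before the start codon PGI1 had 46.4 RPM, close together in the runs at 44.2 to 48.0 RPM.

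PFK1 and PFK2 encode the alpha and beta subunits of phosphofructokinase, the main control point of the pathway. They form one enzyme, yet their upstream regions differed widely. In the PFK2 gap, 1129 bp shared with the divergent frame YMR206W, runs E8YXO9P, FE8RWPF, FFA0GWK and FIDXMPL had 1380.1, 1361, 1418 and 1031 RPM, in all 2639 oligos (2539 to 2742). In the 842 bp gap of PFK1 the same runs had 88.5, 88.5, 93.6 and 96.8 RPM, in all 186 oligos (160.2 to 215). Every run of PFK2 was thus far above every run of PFK1. The PFK2 hotspot was 821 bp wide (XIII, 674890 to 675710) and ranked 95 of 3626 with 2620 oligos, reaching from about 120 to 940 bp before the PFK2 start codon and to within about 180 bp of YMR206W. It had 2 peaks, 303 RPM between 300 and 400 bp and 274 RPM between 600 and 700 bp, with 38.0 RPM between 500 and 600 bp. PFK1 had 2 weak hotspots of 115 and 97 oligos (VII, 974163 to 974307 and 974511 to 974650), about 500 and 840 bp before its start codon, the farther one across the end of the tandem frame YGR240C-A.

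TPI1 encodes triose phosphate isomerase, which interconverts the triose phosphates made from the split hexose. Its 583 bp gap, behind the tandem gene DET1, held 247 oligos (217 to 280), of which 234 lay in one hotspot of 261 bp (IV, 556684 to 556944). The runs had 106, 109, 145 and 124 RPM in the order above. This summit, about 300 bp before the start codon, was the nearest of the 9.

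TDH1, TDH2 and TDH3 encode glyceraldehyde-3-phosphate dehydrogenase, the step that yields NADH, and TDH3 is known as the main form in cells growing on glucose. Their ORFs are closely related copies, but their upstream regions ranged from strong to cold. In the 1000 bp before the start codon TDH1 had 1202 oligos (1135 to 1272), TDH2 830 (774 to 888) and TDH3 37 (26.1 to 51.0). TDH1 had 538, 597, 616 and 608 RPM in runs E8YXO9P, FE8RWPF, FFA0GWK and FIDXMPL. The same runs had 412, 407, 419 and 402 RPM for TDH2, and 22.7, 17.0, 17.7 and 16.8 RPM for TDH3. No run placed the 3 copies in another order.

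The TDH1 oligos formed a hotspot 799 bp wide with 1206 oligos (X, 337227 to 338025), whose span takes in the small frame YJL052C-A, while the 267 bp gap itself held 8 oligos (3.45 to 15.8). TDH2 shares its 1557 bp gap with MET3, the ATP sulfurylase gene of sulfate assimilation. Of its 1059 oligos, 808 lay in a hotspot about 580 bp before the TDH2 start codon (X, 454983 to 455398) and 222 in one about 1110 bp before it (X, 455719 to 455951), on the MET3 side. TDH3, behind the tandem gene PDX1, had 35 oligos (24.4 to 48.7) in 698 bp. Its smoothed maximum within 1000 bp was 0.640 times the genome mean, against 3.13 times at PGI1 and 3.50 times at ENO2, the weakest of the genes with a hotspot there.

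ENO1 and ENO2 encode enolase, which makes phosphoenolpyruvate, and are again close copies. ENO1 had 408 oligos (369 to 450) in the 1000 bp before its start codon and ENO2 had 137 (115 to 162). Run by run, ENO1 had 215, 172, 182 and 250.3 RPM and ENO2 37.9, 56.2, 91.8 and 77.8 RPM, so each ENO1 value was above each ENO2 value. The ENO1 hotspot (VII, 1000014 to 1000538) held 385 oligos, from about 390 to 910 bp before ENO1, in a 1786 bp gap shared with the proteasome gene PUP2. The ENO2 hotspot (VIII, 450780 to 450935) held 88 oligos and had its summit inside the small frame YHR173C, about 470 bp before ENO2. The 173 bp between YHR173C and ENO2 had 0 oligos in all 4 runs. Over the pooled runs a floor of 3 counts is 1.48 RPM, and the upper end of the Poisson interval is 3.69 oligos or 1.82 RPM. In single runs the floor of 3 counts is 5.10 to 7.58 RPM.

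CDC19 encodes pyruvate kinase, the last step, which a cell making glucose must bypass. Its 2260 bp gap, the longest of the 10, is shared with CYC3, the cytochrome c haem lyase gene, and held 2376 oligos (2281 to 2474). That total was made of separate hotspots: 1241 oligos about 460 bp before CDC19 (I, 70779 to 71510), 54 at about 1360 bp (I, 70369 to 70469), and 967 at about 2020 bp, some 70 bp from CYC3 (I, 69598 to 69954). The CDC19 side alone therefore had 613 RPM, compared with 1173 RPM for the gap.

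Ordered by the 1000 bp before the start codon, the levels were 1302 RPM at PFK2, 621 at CDC19, 594 at TDH1, 410 at TDH2, 201.5 at ENO1, 134 at PFK1, 122 at TPI1, 67.7 at ENO2, 46.4 at PGI1 and 18.3 at TDH3. Counting intervals of CDC19 and TDH1 and of PFK1 and TPI1 overlapped. Those of ENO2 and PGI1 only touched, with a lower end of 115.02 oligos at ENO2 and an upper end of 115.03 at PGI1. Overlap of intervals is not a test of a difference, and none was made. The span from PFK2 to TDH3 ran from the 97.4th to the 13.4th percentile of all genes.

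**Figure D2:**
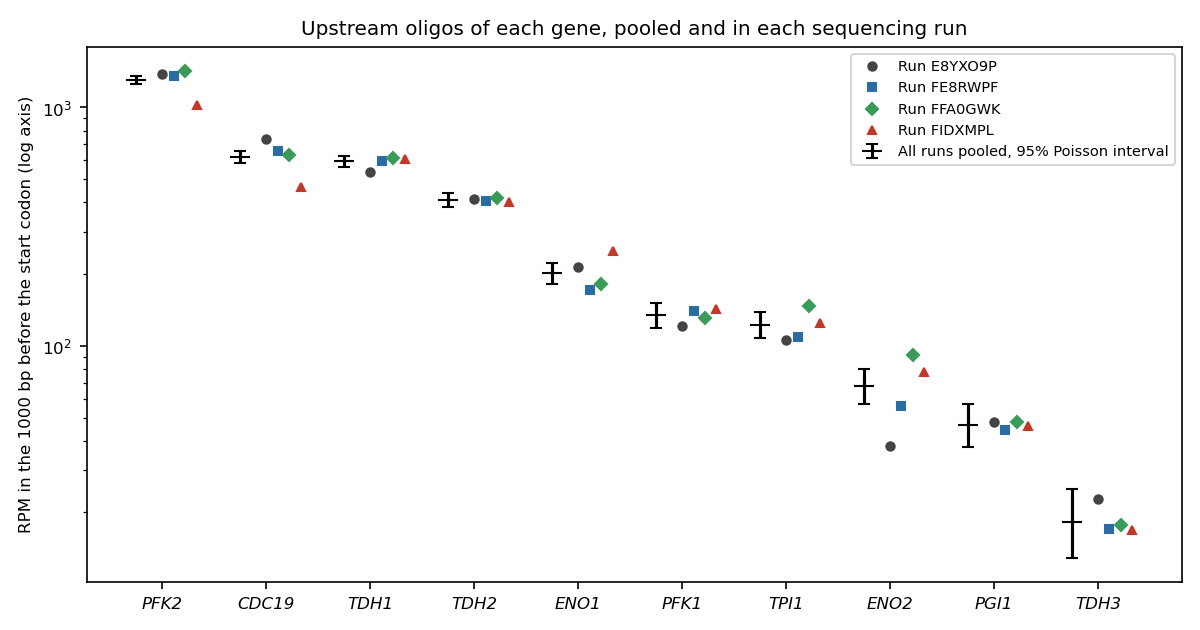
RPM in the 1000 bp before the start codon (log axis) for each gene, with the pooled value and its 95% Poisson interval as a black bar and the 4 sequencing runs as symbols. PFK2 and TDH3 stand apart in every run, and run FIDXMPL is low at PFK2 (1029 RPM) and CDC19 (465 RPM).

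The cuts lay far from the start codons. In the 9 genes with a hotspot within 1000 bp, the nearest summit was 295 to 584 bp before the start codon with a median of 473 bp; over the 4108 genes with such a hotspot the median was 212 bp, with 25th and 75th percentiles of 143 and 352 bp. All 9 were 250 bp or more away (41.7% of those genes), and 7 of the 9 were 400 bp or more away (20.4%). Among genes whose gap is 500 bp or longer, 6 of 6 glycolytic genes and 65.9% of 1867 genes had the summit that far away. Glycolytic gaps were longer, with a median of 770 bp, and 449 bp in all genes. These distance limits were chosen after the values were seen.

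The stretch next to the start codon was nearly free of cuts. In the 10 genes together, 98 oligos fell within 200 bp of the start codon and 22 within 100 bp, out of 7122 within 1000 bp. The median share within 200 bp was 0.528% in the 10 genes and 36.2% in the 5135 genes with 20 or more upstream oligos. It was under 5% in 8 of 10 genes (20.8% of all such genes), and under 5% in 6 of the 7 with a gap of 500 bp or more (37.1% of 2219 genes). The exceptions were TDH3, with 4 of 37 oligos, and PGI1, with 5 of 94. By contrast 25.2% of the upstream oligos of the median glycolytic gene lay between 400 and 500 bp, where the median over all genes was 1.89%.

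**Figure D3:**
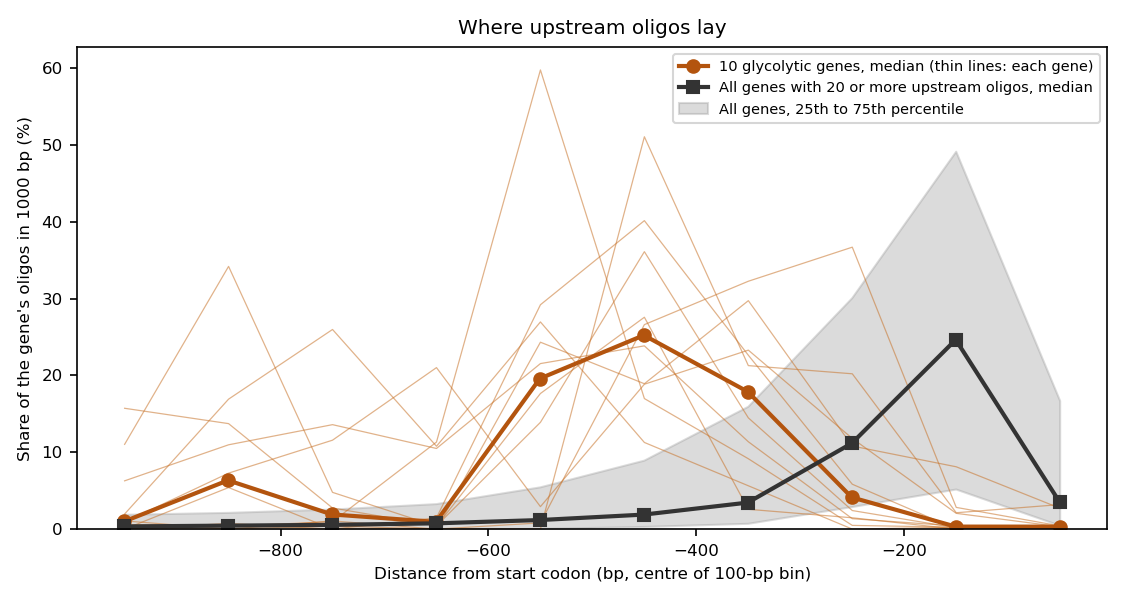
Share in percent of the oligos of each gene's 1000 bp upstream region (y axis) by distance from the start codon in 100-bp bins (x axis), for the 10 glycolytic genes (thick orange line, median; thin lines, single genes) and all genes with 20 or more upstream oligos (black line, median; grey band, 25th to 75th percentile). The glycolytic median is highest between 400 and 500 bp (25.2%) and the median of all genes between 100 and 200 bp (24.6%).

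Inside the ORFs counts were low even beside other genes. The median ORF density was 1.92 RPM per kb in the 10 genes and 4.97 RPM per kb in all genes, with 9 of the 10 under the median of all genes (50% by construction) and 8 of the 10 in the lowest 25% of genes (25% by construction). These 8 were PFK1, PFK2, TPI1 and all the TDH and ENO genes, whose counts are lower bounds for the reason given below. The 25th percentile was 3.17 RPM per kb, and only the counting intervals of TDH1 and ENO1 ended below it, at 2.75 and 2.09. Those of PFK1, PFK2, TPI1, TDH2, TDH3 and ENO2 reached above it, so their place in the lowest 25% is not secure. PGI1 lay at the 44.2nd percentile. TPI1, TDH1 and ENO1 each had 1 oligo in the whole ORF (0.0253 to 5.57), TDH3 had 2, ENO2 4 and TDH2 6. PFK1 and PFK2, with the longest ORFs, had 14 and 17 oligos, and PGI1 had 15.

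For the TDH and ENO copies these counts are lower bounds, since the list holds uniquely mapped reads and oligos from identical stretches of 2 copies cannot map to one place. The 5 TDH and ENO genes had a median of 0.989 RPM per kb, and the 5 others 2.92 RPM per kb. How much was lost to shared sequence was not tested. The curated map, the authors' second file, had 14, 15 and 1 hits in the ORFs of PFK1, PFK2 and TPI1. In the ORFs of TDH1, TDH2, TDH3, ENO1 and ENO2 it had 1, 6, 2, 0 and 4. These hits do not measure the loss, since how that map treats reads from identical stretches is not known here.

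CDC19 was the exception, with 63 oligos (48.4 to 80.6) in its ORF, or 20.7 RPM per kb, at the 84.8th percentile of genes. They were not spread evenly: 9 lay in the first 900 bp, 29 in a cluster beyond that point and 25 in a second cluster at the end of the ORF, with 0 in the 200 bp between the clusters. Each of the 4 runs contributed, with 11, 16, 13 and 23 oligos. PYK2, the second pyruvate kinase gene, had 13 oligos in its ORF, or 4.22 RPM per kb.

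**Figure D4:**
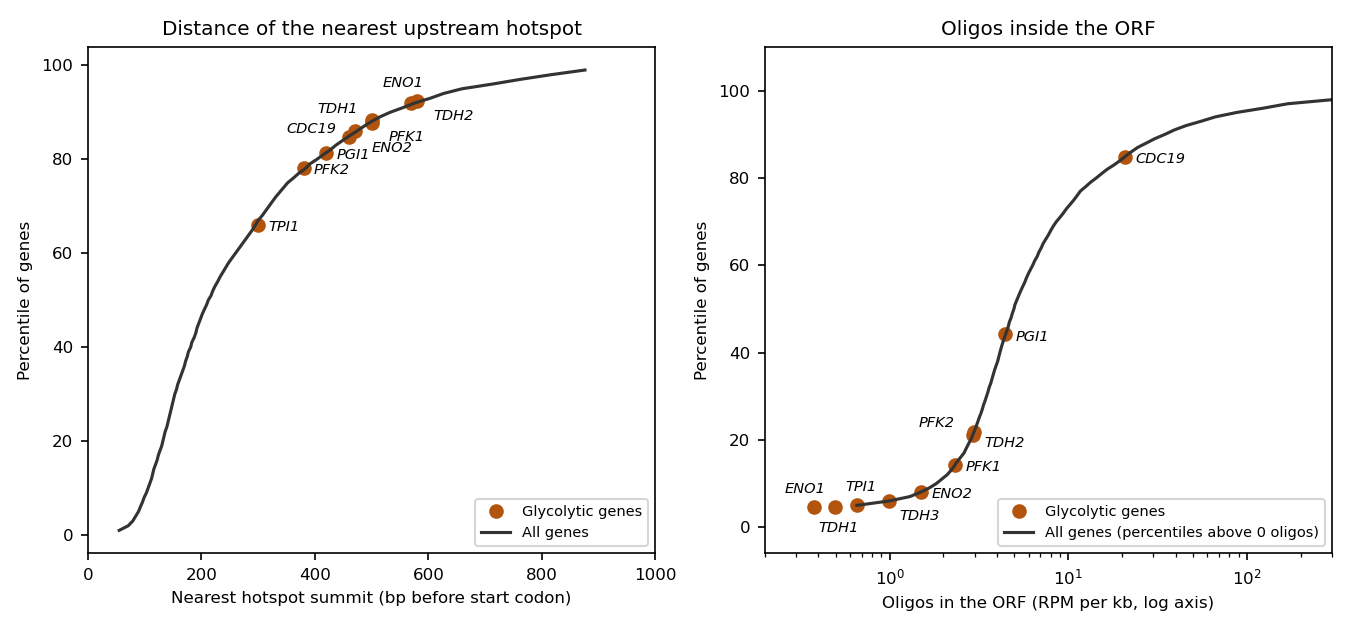
Glycolytic genes (orange points) against the percentiles of all genes (black line), for the distance in bp of the nearest hotspot summit before the start codon (left; the 4108 genes with one within 1000 bp, TDH3 has none) and for oligos inside the ORF in RPM per kb (right, log axis; the line starts above the genes with 0 oligos). All 9 points on the left lie at or above the 66.1st percentile, and on the right 8 of 10 genes lie below the 25th percentile, with CDC19 at the 84.8th. The 8 include all the TDH and ENO copies, whose ORF counts are lower bounds. Of the 8, all but TDH1 and ENO1 have counting intervals that reach above the 25th percentile.

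Behind the stop codons, hotspots lay mostly where the next gene pointed the same way. In such gaps, which hold the start of the next gene, a hotspot was present at 4 of 5 genes (65.6% of 2671 such gaps): 364 oligos between PFK1 and PEX21, 309 between TDH1 and IRC8, 82 between ENO2 and CTR2 and 54 between PGI1 and MSI1, but none between PFK2 and INP1. In convergent gaps, which hold only gene ends, CDC19, TPI1, TDH2 and ENO1 had 16, 2, 4 and 5 oligos in the whole gap and no hotspot. TDH3, the only gene of the 10 without a hotspot summit within 1000 bp upstream, had 1 downstream (VII, 882275 to 882395). That hotspot held 88 oligos about 480 bp past the stop codon, in the convergent gap with HIP1, the histidine permease gene. Such a hotspot was present in 1 of 5 convergent gaps here and in 8.91% of 1436 convergent gaps.

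Run FIDXMPL was set against the other runs pooled, a contrast picked after the values were seen. It had 0.741 times their level at the PFK2 hotspot, 0.699 times at the CDC19 hotspot and 0.552 times at the hotspot next to CYC3, but 1.02 times at the TDH1 hotspot and 0.961 times at the stronger TDH2 hotspot. In the other hotspots of the 10 genes the ratio ran up to 1.92, between PGI1 and MSI1, and down to 0.559, between ENO2 and CTR2. Over all 3626 hotspots the median ratio was 1.01, with 0.611 and 1.63 as 10th and 90th percentiles, and of the hotspots around the 10 genes those next to CYC3, MSI1 and CTR2 lay outside that range. Strands were near balance except at TDH1, where 60.1% of the upstream oligos were on the coding strand of the gene (95% Wilson interval 57.4 to 62.9%), and TDH2, with 37.5% (34.2 to 40.8%). Single positions weighed most in the same genes: 178 of 1202 oligos at TDH1 and 175 of 830 at TDH2 (21.1%) came from 1 position and strand, against 4.45 to 10.8% in the other 8. PCR copies cannot be told from separate molecules, and their part in these peaks was not tested.

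Other genes of carbon metabolism were counted the same way, from lists drawn up with earlier results of these data known. A hotspot was present in the 5′ gap of 31 of 36 genes (73.8% of all genes), with a median of 235 RPM. Among other glycolytic enzymes, 4 of 4 had one: hexokinase genes HXK1 (451 RPM) and HXK2 (169), the phosphoglycerate kinase gene PGK1 (188) and PYK2 (104). These levels are of the gap, and a hotspot counted for a gap can reach beyond it. The hotspots counted for PYK2 held 1926 oligos and its gap 211, so most of that signal lay outside the gap. GLK1, for glucokinase, has no gap, because the frame YCL042W overlaps it. FBA1 and GPM1, for aldolase and phosphoglycerate mutase, lie on chromosome XI. That chromosome was left out as a whole, since the gene table is out of register with the map over most of its length.

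Gluconeogenesis was represented by FBP1, for fructose-1,6-bisphosphatase, which reverses the phosphofructokinase step and had 1025 RPM, and by PYC1 (256) and PYC2 (235), for pyruvate carboxylase. All 3 of 3 had a hotspot, but that of PYC2 held 2532 oligos and its gap 475. In the pentose phosphate pathway 10 of 10 genes had one, from TKL2 (1259), for transketolase, and ZWF1 (1254), for glucose-6-phosphate dehydrogenase, to GND2 (80.5) and SOL4 (63.2). In ethanol fermentation 6 of 8 did, with alcohol dehydrogenase genes ADH3 (656) and ADH2 (419) highest and PDC5 (25.2) and ADH4 (8.40) lowest. For the glycerol branch it was 3 of 4, led by GPD2 (1135) and GPP2 (422), with GPD1 at 201.5 and GPP1 at 50.4. Of 7 regulators, 5 had one, led by RAP1 (318) and TYE7 (303), while GCR1 (56.3) and FBP26 (28.1) had none. ORF density was in the lowest 25% of genes in 8 of these 36 genes.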

How the data were processed

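Per the file headers, the authors deposited uniquely mapped reads on S288C (start, end, name, strand) and a curated map of raw hit counts per position; neither tells datasets apart or is normalised. Not given in the sources used here: aligner, build. At each read, the 5′ end was the start of top-strand reads and the end of bottom-strand reads. Genes came from the R64 gene table, used for names, orientation, gaps and distances; none of its coordinates is printed. In 50 kb windows around the genes, the shift at which genes held the fewest oligos (at most 10 counted per position and strand) was −35 to 50 bp. Hotspots were called after smoothing with a 201 bp Hann window at 2.3 times the mean over 12000000 bp, merged at 200 bp or less, at least 25 bp and 10 RPM; a summit outside gaps counted for the nearest gap. Code (Python 3.11.15, numpy 2.4.6, pandas 2.3.3, scipy 1.17.1) was tested on simulated data. Floors take 3 counts. Reads come from SK1 but are placed on S288C, and sequence differences can lose oligos.

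The members and lists were chosen with earlier results of these data known. All 10 genes are named, neighbours where they bound a gap, and from the wider lists at most the 2 highest and 2 lowest genes by gap RPM plus PYK2. Chromosome XI was left out of all counts over genes. Alternatives changed the input file, the counting of copies, the table register, the runs and the hotspot settings. No promoter or protein sequence was used here.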

Additional observations from a re-analysis of the deposited data

How the results depend on the processing

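The count of 6 genes with a hotspot in the 5′ gap was 6 under 20 of the 22 alternatives, 7 with any overlap of a hotspot with the gap, and 9 with gaps drawn to the next gene with a standard name. The share of all genes with a hotspot, 73.8% with the settings used, moved more. It was 56.8% at a threshold of 5 times the mean, 60.3% at a minimum of 50 RPM and 84.9% with each position and strand counted once. The 6 of 10 lay above that share only at the threshold of 5 times the mean, and under it in the other settings where it was computed. The median gap density of 116 RPM per kb was also computed with settings that lower the total over which RPM is taken. It was 185 RPM per kb with each position and strand counted once and 159.9 with at most 10 reads per position and strand. It was 131 and 165 with the gene table moved by +100 and −100 bp, 103 in run FE8RWPF alone, 135 in FIDXMPL alone, 166 with gaps to the next standard name and 157 in the 500 bp before the start codon; the cause was not tested. The count of summits 250 bp or more away was 7 to 9, with 7 of the 7 genes that still had a summit within 1000 bp at a threshold of 5 times the mean or a minimum of 50 RPM; the share of all genes was not computed there. The count of ORFs in the lowest 25% of genes was 5 in run E8YXO9P alone and 6 to 8 otherwise. Genes with under 5% of oligos near the start codon numbered 6 to 10. Including chromosome XI after a local shift of −375 bp gave 34 genes of the wider lists with a hotspot, where the count without the chromosome was 31 of 36. The shift was the median over 9 windows of the shift that left the fewest oligos inside ORFs. It therefore lowers ORF counts by construction. Including the chromosome added GPM1, FBA1 and the gluconeogenesis gene PCK1, with 1 hotspot each, and FBA1 had 690.4 RPM in its gap. Each of these genes also had 1 hotspot counted without the shift. The gap of GPM1 held 327 oligos with and without the shift, and that of FBA1 held 1398 with it and 570 without it. The share of all genes with chromosome XI included was not computed.

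No paired analysis was possible because the files do not tell the datasets apart. Runs are not replicates, so no spread between cultures is known, and ORF counts of 1 to 6 oligos are too few to order those genes. The measures by distance, the ORF limit and the gaps to standard names, with their alternatives, were chosen after seeing the data.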
